A study of Saccharomyces cerevisiae with 56 samples.

Results

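Insertions captured at a chromosome break were compared in budding yeast lacking both long-range resection pathways (*sgs1*Δ *exo1*Δ) and in each single mutant (*sgs1*Δ, *exo1*Δ). The 3 genotypes were taken by the names of their deposited lists, and they hold 141 donors in 135 insertions, of 1620 donors in 1527 insertions over 16 genotypes of the series. The strains of these genotypes are haploid derivatives of JKM139 with the auxotrophic alleles *ura3-52*, *trp1::hisG*, *lys5* and *ade1* and a mutant *leu2*, and were kept at 30 °C. Their own *HO* gene is deleted, *hmr::ADE1* and *hml::ADE1* remove the silent mating-type copies that could repair a *MAT***a** break, and *ade3::GAL10::HO* supplies the endonuclease. To this background *sgs1*Δ *exo1*Δ adds *sgs1::KanMX* and *exo1::TRP1*, *sgs1*Δ adds *sgs1::KanMX* and *exo1*Δ adds *exo1::TRP1*, each as 1 strain. Galactose induces the HO endonuclease, which cuts once per genome at *MAT***a**, and colonies of survivors were pooled for amplicon sequencing of the repaired junction by *Break-Ins*. Values of *mre11*-H125N, with a nuclease-dead Mre11 in the same background, are given beside them. It was chosen for its few insertions and is a resection mutant, not a wild type. For scale, some values are also given of *rtt105*Δ (*rtt105::hphMX*), *rad27*Δ (*rad27::klTRP1*) and the double mutant *rtt105*Δ *rad27*Δ, which are JKM139 derivatives too. Of these added genotypes, *mre11*-H125N, *rtt105*Δ and *rtt105*Δ *rad27*Δ were kept at 30 °C, and libraries of *rad27*Δ at 23, 30 or 37 °C.

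Resection turns the ends of a double-strand break into single-stranded DNA. Mre11 starts the process near the end, and the exonuclease Exo1 and the helicase Sgs1, acting with the nuclease Dna2, extend it along parallel routes. A broken end that is not extended in this way stays available for end joining, and pieces of DNA from elsewhere can be joined into it. Such a piece is called a donor here, and an insertion holding more than 1 donor is called complex. Known sources are retrotransposon cDNA (Ty), the tandem ribosomal DNA (rDNA) on chromosome XII, mitochondrial DNA and other chromosomal sites.

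The numbers of colonies given in the labels were 55000 for *sgs1*Δ *exo1*Δ (4 libraries of 10000 to 15000), 106080 for *sgs1*Δ (libraries of 83280 and 22800), 54240 for *exo1*Δ (libraries of 30624 and 23616) and 144320 for *mre11*-H125N (libraries of 64320 and 80000). Each list pools the libraries of its genotype and gives neither the library nor the number of reads of a donor. There is therefore no spread between libraries, and the depth of sequencing is not known from the lists. The study pooled libraries by equal volume, while their numbers of colonies differ, so reads per colony may differ between genotypes. The bearing of this on the frequencies was not tested. The 95% intervals and tests below cover counting error among colonies only. The double mutant was sequenced in 1 run that held no other genotype of the lists, so run and genotype cannot be told apart. The lists hold no reading of *SGS1* or *EXO1*, and the genotypes rest on the labels.

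*sgs1*Δ *exo1*Δ had 76 insertions from outside the mating-type cassettes, *sgs1*Δ had 42 and *exo1*Δ had 9. Per 10000 colonies these were 13.8 (95% interval 10.9 to 17.3) in *sgs1*Δ *exo1*Δ, 3.96 (2.85 to 5.35) in *sgs1*Δ and 1.66 (0.759 to 3.15) in *exo1*Δ. The double mutant was 3.49-fold above *sgs1*Δ (adjusted p = 3.08e-10 by two-sided Fisher's exact test) and 8.33-fold above *exo1*Δ (Fisher's exact test, adjusted p = 5.23e-13). *sgs1*Δ was 2.39-fold above *exo1*Δ (Fisher's exact test, adjusted p = 0.0307). P-values of frequencies were adjusted by Benjamini-Hochberg over 20 comparisons, which are the 3 pairs for all insertions and for each of 6 classes, except chrmp in *sgs1*Δ against *exo1*Δ, where neither had a donor. *mre11*-H125N had 6 such insertions, or 0.416 per 10000 colonies (0.153 to 0.905), and is given without a test, since it was chosen for its low count.

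The frequency in the double mutant lay above the sum of those in the single mutants. It was 13.8 per 10000 colonies in *sgs1*Δ *exo1*Δ, while *sgs1*Δ and *exo1*Δ together gave 5.62, a difference of 8.20 with a 95% interval of 4.63 to 12.0. By class, nuclear donors were 4.96 per 10000 colonies above the sum (2.81 to 7.44), rDNA donors 1.72 (0.390 to 3.31) and donors on the sequence named chrmp 1.64 (0.465 to 3.11). For Ty donors the difference was 1.17 with an interval of -1.34 to 3.73, which includes 0 and overlaps those of the other classes. Differences between classes were not tested. The intervals of mating-type and chrmt donors also included 0.

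**Figure D1:**
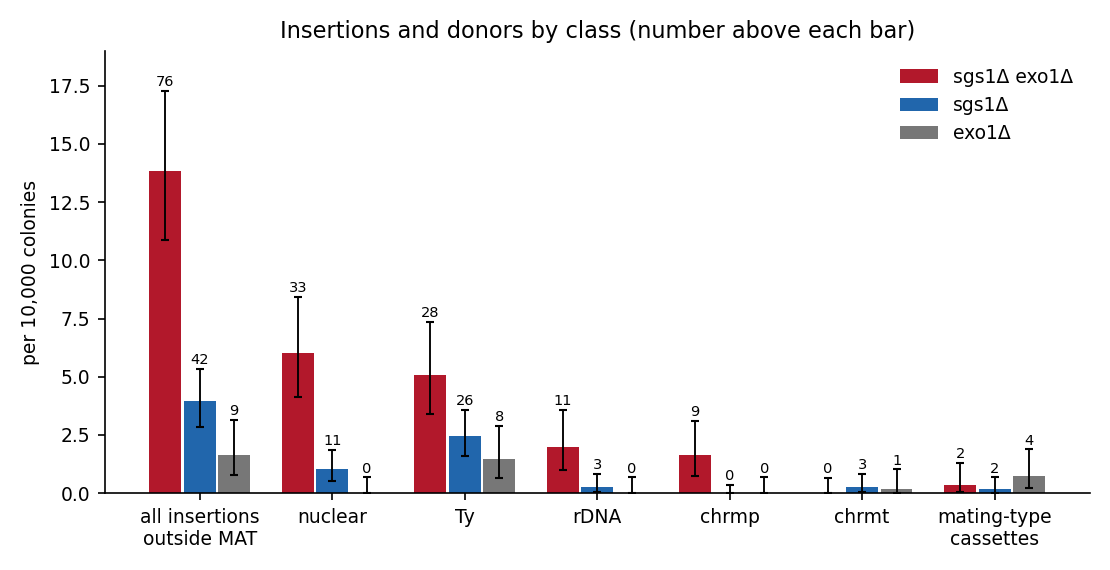
Insertions outside the mating-type cassettes and donors of each class per 10000 colonies in *sgs1*Δ *exo1*Δ, *sgs1*Δ and *exo1*Δ. Bars give the frequency, lines the exact 95% interval and the label over each bar the number listed. The double mutant stands above both single mutants for nuclear (33, 11 and 0 donors), Ty (28, 26 and 8), rDNA (11, 3 and 0) and chrmp (9, 0 and 0), and not for chrmt (0, 3 and 1).

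Nuclear donors, those outside Ty, rDNA and the mating-type cassettes, differed in frequency between all 3 pairs of genotypes. There were 33 in *sgs1*Δ *exo1*Δ, 11 in *sgs1*Δ and none in *exo1*Δ. The exact upper limit for 0 among the 54240 colonies of *exo1*Δ is 0.680 per 10000, and 3 donors counted for the 0 give 0.553. The frequency was 6.0 per 10000 colonies in *sgs1*Δ *exo1*Δ (4.13 to 8.43) and 1.04 in *sgs1*Δ (0.518 to 1.86). The double mutant was 5.79-fold above *sgs1*Δ (Fisher's exact test, adjusted p = 2.36e-07) and 10.8-fold above *exo1*Δ, counting 3 donors for the 0 (Fisher's exact test, adjusted p = 1.58e-09). Folds against a 0 counted in this way leave out the error of the other frequency and are not lower limits. Counted so, *sgs1*Δ was 1.87-fold above *exo1*Δ (Fisher's exact test, adjusted p = 0.0340). That last call was lost when Ty donors had to overlap a Ty reading frame, since 2 donors of *exo1*Δ beside Ty frames then count as nuclear (13 in *sgs1*Δ and 2 in *exo1*Δ, exact adjusted p = 0.179).

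The nuclear donors of *sgs1*Δ *exo1*Δ lay on 12 chromosomes and none recurred. Merging donors within 500 bp gave 44 nuclear loci over the 3 genotypes, each with 1 donor of 1 genotype. With so few donors over all chromosomes, the lack of recurrence says little about the mutants and was not tested. Of the 33, 25 overlapped an annotated gene (75.8%), and 8 lay between genes. In *sgs1*Δ, 8 of 11 overlapped a gene (72.7%). Annotated genes other than Ty frames cover 71.6% of the chromosome length, so the shares of both mutants are close to the share of the chromosomes that genes take. Of these 25 double-mutant donors, 24 were counted by strand, with 14 listed on the sense strand and 10 on the antisense strand of the gene. The donor left out was also antisense to a gene it overlapped. In *sgs1*Δ 3 were sense and 4 antisense of 7.

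The longest nuclear donor of the double mutant was 398 bp from *ARA1* (chrII:540466-540863), which encodes an arabinose dehydrogenase. The shortest was 67 bp from *MRP4* (chrVIII:99543-99609), which encodes a protein of the mitochondrial ribosome. Donors covering parts of more than 1 gene were found at *PRP11* and *SIR2* (330 bp, chrIV:376460-376789), a splicing factor and the histone deacetylase of silent chromatin, and at *TIM9* and *RPR1* (390 bp, chrV:117464-117853), a mitochondrial import chaperone and the RNA of nuclear RNase P. A donor of 109 bp came from *POP1* (chrXIV:231661-231769), a protein subunit of the same RNase P.

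Other donors of the double mutant came from genes of chromosome metabolism. *MUS81*, which encodes a structure-selective endonuclease, gave 114 bp (chrIV:1247158-1247271). *RED1*, a protein of the meiotic chromosome axis, gave 103 bp (chrXII:672655-672757), and *ECM11*, which acts in synaptonemal complex assembly, gave 169 bp (chrIV:1353766-1353934). The chromatin remodelling ATPase gene *SNF2* gave 247 bp (chrXV:859825-860071). A donor of 101 bp (chrIV:825885-825985) overlapped the acetyltransferase subunit gene *SAS4* by 76 bp. One of 159 bp (chrXVI:106046-106204) overlapped the kinetochore gene *NSL1* by 33 bp. These genes are named for their donors and are not a tested group.

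Further coding donors were in *KCS1* (152 bp), an inositol phosphate kinase gene, *MSP1* (105 bp), an outer-membrane ATPase gene of mitochondria, and *MDH1* (117 bp), the mitochondrial malate dehydrogenase gene. *IMD2* (257 bp), *VPS17* (227 bp), a retromer gene, *GDB1* (107 bp), the glycogen debranching enzyme gene, *DDI2* (98 bp), *SOV1* (197 bp), *AIM41* (145 bp), *ART10* (119 bp), *SSP120* (146 bp), *SKG1* (248 bp), *VPS501* (133 bp) and *YKL069W* (96 bp) completed the list. Each was hit once. The lengths are those of whole donors, and the overlap with the gene was 89 bp for *VPS17*, 67 bp for *DDI2* and 96 bp for *MSP1*.

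Of the 8 donors of the double mutant between genes, 7 lay within 1100 bp of a gene. One of 121 bp ended 3 bp from *ERV14* (chrVII:400748-400868), one of 105 bp lay 13 bp from *YIF1* and 255 bp from *POL2*, which encodes the catalytic subunit of DNA polymerase ε (chrXIV:147853-147957), and one of 109 bp lay 152 bp from *YDR109C* and 175 bp from *FOB1*, which encodes the replication fork barrier protein of the rDNA (chrIV:675819-675927). A donor of 149 bp started 14 bp into chromosome XVI, 118 bp from the subtelomeric helicase gene *YRF1-7*. The donor farthest from a gene lay 4229 bp from *FLO5*.

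In *sgs1*Δ the 8 genes hit included *KCC4* (77 bp), *YCF1* (316 bp), *MRP13* (320 bp), *RRN5* (64 bp), *ATR1* (400 bp), *GRE1* (144 bp) and the small nucleolar RNA gene *SNR86* (292 bp), and none of the 8 was among the 27 genes hit in the double mutant. With so few genes hit of all annotated genes, the lack of a shared gene does not tell the mutants apart. In the double mutant none of 9 gene lists held a donor, which is 0 of 21 annotated genes for resection and end joining, 0 of 21 for glycolysis and fermentation, 0 of 138 ribosomal protein genes, 0 of 17 hexose transporter genes, 0 of 30 cell wall and flocculation genes, 0 of 36 seripauperin and COS genes, 0 of 14 galactose genes and strain markers, 0 of 10 histone genes and 0 of 11 translation factor genes. With 33 nuclear donors in all, a low rate within any of these lists was not detectable. Of the 3 donors of *sgs1*Δ between genes, 2, of 37 and 50 bp, lay at the left ends of chromosomes III (from position 153) and XV (from position 23). Within 1 kb of a chromosome end there was 1 of 33 donors in *sgs1*Δ *exo1*Δ and 2 of 11 in *sgs1*Δ.

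tRNA genes are known as preferred sites of Ty integration. In *sgs1*Δ *exo1*Δ 1 of 33 lay within 200 bp of a tRNA gene (3.03%, exact 95% interval 0.0767 to 15.8%), and in *sgs1*Δ 0 of 11 did (0 to 28.5%). The share of the chromosome length within 200 bp of a tRNA gene is 1.08%, and the donors were not tested against it. Fisher's exact test gave an adjusted p of 1.00 between the mutants, adjusted over 15 comparisons of shares, lengths, distances and complex insertions. The donor concerned was 183 bp long and lay 191 bp from the tRNA gene *YNCL0035C* (chrXII:656561-656743). The next was the donor in *MSP1*, at 273 bp from *YNCG0022W*. Within 1 kb there were 5 of 33 donors in the double mutant and 1 of 11 in *sgs1*Δ, against 4.56% of the chromosome length. The median distance was 15102 bp in *sgs1*Δ *exo1*Δ and 13671 bp in *sgs1*Δ.

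Nuclear donors are by definition over 400 bp from a Ty reading frame, and 1 of 33 in *sgs1*Δ *exo1*Δ lay within 1 kb of one (the donor in *MSP1*, at 869 bp), against 0 of 11 in *sgs1*Δ (Fisher's exact test, adjusted p = 1.00). Within 5 kb there were 3 of 33 in the double mutant and 1 of 11 in *sgs1*Δ, and 5.58% of the chromosome length lies that close, Ty frames included. Of the chromosome length, 2.32% lies in or within 400 bp of a Ty frame, where no donor is classed as nuclear. The 4 donors of the double mutant on chromosome XI have no Ty frame on their chromosome. Over the other 29 the median distance was 35433 bp, against 76587 bp over 11 in *sgs1*Δ. Single long terminal repeats (LTRs) without a reading frame are not in the annotation used, so a donor in one of them would be counted as nuclear.

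**Figure D2:**
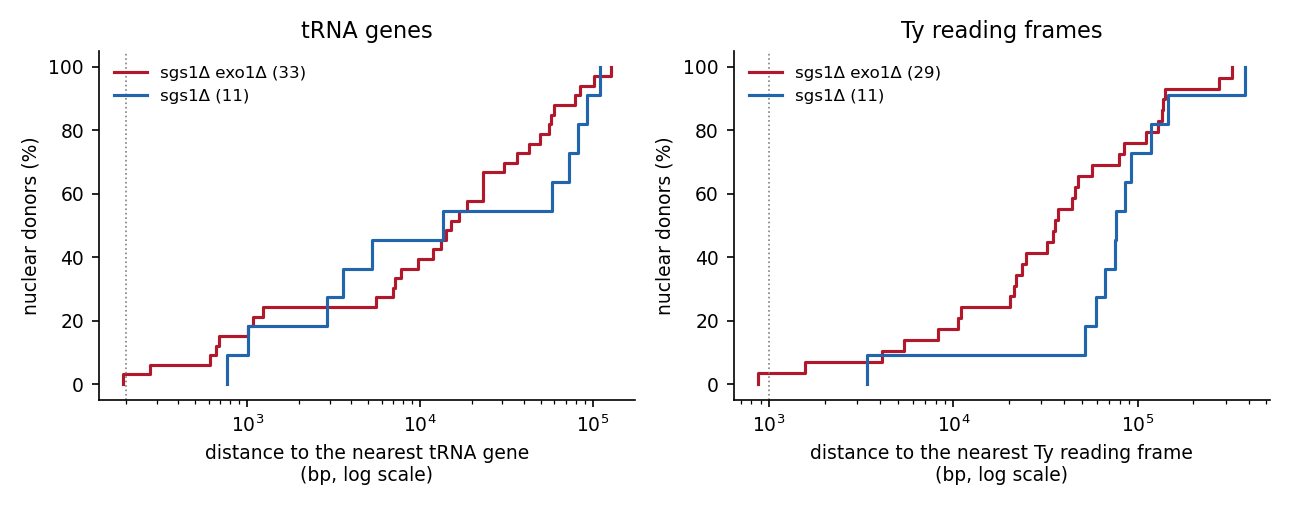
Cumulative share of nuclear donors (%) by distance to the nearest tRNA gene and to the nearest Ty reading frame (bp, log scale) in *sgs1*Δ *exo1*Δ and *sgs1*Δ, with the dotted line at the distance tested. At 200 bp from a tRNA gene stands 1 of 33 donors of the double mutant and 0 of 11 of *sgs1*Δ, and *exo1*Δ has no nuclear donor.

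Ty donors numbered 28 in *sgs1*Δ *exo1*Δ, 26 in *sgs1*Δ and 8 in *exo1*Δ. Per 10000 colonies these were 5.09 (3.38 to 7.36) in *sgs1*Δ *exo1*Δ, 2.45 (1.60 to 3.59) in *sgs1*Δ and 1.47 (0.637 to 2.91) in *exo1*Δ. The double mutant was 2.08-fold above *sgs1*Δ (Fisher's exact test, adjusted p = 0.0182) and 3.45-fold above *exo1*Δ (Fisher's exact test, adjusted p = 0.00301), while *sgs1*Δ against *exo1*Δ did not pass (1.66-fold, exact adjusted p = 0.395). The call against *sgs1*Δ depended on how Ty donors were counted. It was lost when donors had to overlap a Ty frame (24 in *sgs1*Δ *exo1*Δ and 24 in *sgs1*Δ, exact adjusted p = 0.0577). Complex insertions of the double mutant hold 9 Ty donors, and with each insertion counted once per class there were 23 in *sgs1*Δ *exo1*Δ and 25 in *sgs1*Δ (exact adjusted p = 0.0807). With single-donor insertions only, neither comparison passed, at 19 in *sgs1*Δ *exo1*Δ against 24 in *sgs1*Δ (exact adjusted p = 0.304) and against 8 in *exo1*Δ (exact adjusted p = 0.0952).

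As a share of donors outside the mating-type cassettes, Ty was lower in the double mutant. It made up 28 of 81 donors in *sgs1*Δ *exo1*Δ (34.6%, 24.3 to 46.0%), 26 of 43 in *sgs1*Δ (60.5%, 44.4 to 75%) and 8 of 9 in *exo1*Δ (88.9%, 51.8 to 99.7%). The double mutant differed from *sgs1*Δ (Fisher's exact test, adjusted p = 0.0447) and from *exo1*Δ (Fisher's exact test, adjusted p = 0.0367), and *sgs1*Δ against *exo1*Δ did not pass (exact adjusted p = 0.346). Counting donors with both ends within 5 bp once removed 2 Ty donors of *sgs1*Δ and ended the call against *sgs1*Δ (exact adjusted p = 0.0972). Without the margin of 400 bp around Ty frames neither call held (exact adjusted p = 0.0969 against *sgs1*Δ and 0.415 against *exo1*Δ).

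The Ty donors came from few of the 49 elements with an annotated frame. The element of *YPL257W-B* on chromosome XVI (frame at 56748 to 62016) gave the most donors, with 8 in *sgs1*Δ *exo1*Δ, 6 in *sgs1*Δ and 3 in *exo1*Δ. *YPR137C-B*, on the same chromosome (805001 to 810269), gave 6 in the double mutant, 4 in *sgs1*Δ and none in *exo1*Δ. *YLR227W-B* on chromosome XII (593438 to 598706) gave 4 in the double mutant, 3 in *sgs1*Δ and none in *exo1*Δ. Chromosome XVI thus held 14 of 28 Ty donors of *sgs1*Δ *exo1*Δ, 13 of 26 of *sgs1*Δ and 3 of 8 of *exo1*Δ. Ty copies of the same family are nearly identical in sequence, so the copy named is the one the alignment listed and may not be the source.

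Within the element most donors of the double mutant were listed at the 5′ border. The LTRs at both ends of an element are nearly identical and their boundaries are not in the annotation used, so a donor within LTR sequence may come from either end. In Ty1 elements the *gag* frame starts inside the 5′ LTR, and reverse transcription is primed by a tRNA that pairs just past that LTR. Of 28 Ty donors of the double mutant, 18 began upstream of or within the first 30 bp of the *gag* frame and ended 36 to 50 bp into it (64.3%). In *sgs1*Δ 14 of 26 did so, with ends at 33 to 50 bp (53.8%), and in *exo1*Δ 4 of 8, with ends at 47 to 50 bp (50.0%). The window of 30 to 51 bp was chosen after the positions had been seen, so these shares are a description without a test. For scale, 44 of 205 Ty donors of *rtt105*Δ (21.5%) and 3 of 4 of *mre11*-H125N fell in the same window.

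The ends inside this window fell in narrow groups. In *sgs1*Δ *exo1*Δ 8 of the 18 ended 41 to 43 bp and 9 ended 47 to 50 bp into the *gag* frame. In *sgs1*Δ 1 of 14 ended at 41 to 43 bp and 11 at 47 to 50 bp, and all 4 in *exo1*Δ ended at 47 to 50 bp. Antisense donors were the majority, with 13 of 18 in the double mutant, 9 of 14 in *sgs1*Δ and 4 of 4 in *exo1*Δ. Their other ends varied, so that the lengths ran from 44 to 353 bp in *sgs1*Δ *exo1*Δ, 81 to 348 bp in *sgs1*Δ and 94 to 348 bp in *exo1*Δ. The longest reach back about the length of an LTR, and 3 donors of the double mutant, 4 of *sgs1*Δ and 1 of *exo1*Δ began at least 290 bp upstream of the frame.

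Some border donors were the same in different genotypes. A donor of 98 bp at *YOL103W-B*, chrXV:117951-118048 on the minus strand, was listed with identical ends in *sgs1*Δ *exo1*Δ and in *sgs1*Δ, which were sequenced in different runs. In *mre11*-H125N it was listed from 117955 to 118048. At *YML039W* the ends were 196578 and 196676 in *sgs1*Δ *exo1*Δ, against 196579 and 196676 in *sgs1*Δ, and at *YDR365W-B* 1206703 and 1207047 in *sgs1*Δ *exo1*Δ, against 1206700 and 1207047 in *sgs1*Δ. *sgs1*Δ also listed 1 donor with identical ends in 2 insertions, at 808153 to 808257 inside *YPR137C-B*. No nuclear donor was shared in this way.

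**Figure D3:**
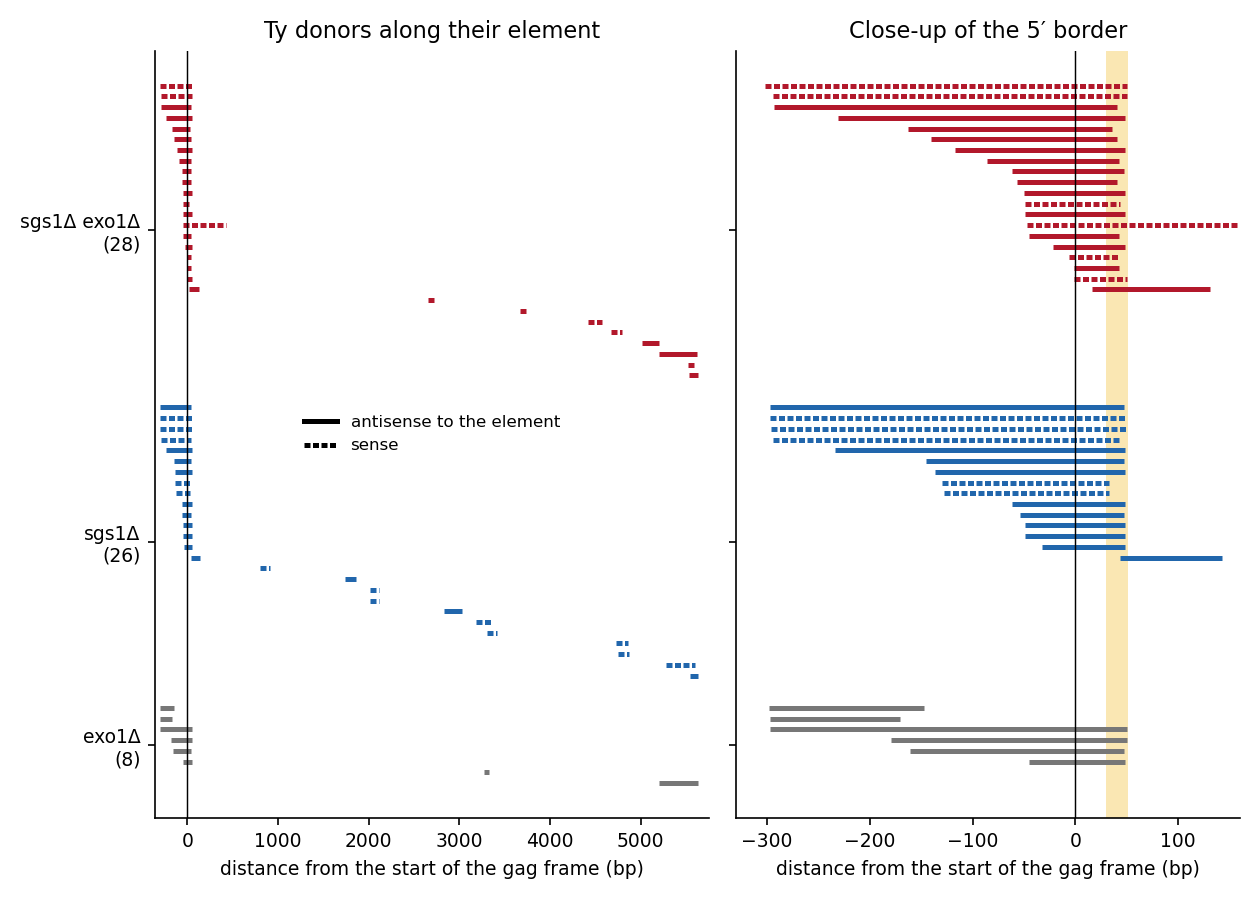
Ty donors as segments along their element, by distance from the start of its first annotated frame (bp), with a close-up of the 5′ border. Each line is a donor, solid where antisense and dashed where sense to the element. The shaded window of 30 to 51 bp holds the ends of 18 of 28 donors of *sgs1*Δ *exo1*Δ, 14 of 26 of *sgs1*Δ and 4 of 8 of *exo1*Δ.

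Complex insertions numbered 4 among 76 in *sgs1*Δ *exo1*Δ (5.26%, 1.45 to 12.9%) and 1 among 42 in *sgs1*Δ (2.38%, 0.0603 to 12.6%), a difference that did not pass (Fisher's exact test, adjusted p = 0.818). For *exo1*Δ only a list of single-donor insertions was analysed. All 9 donors of the 4 complex insertions of the double mutant were Ty, as were both donors of the one in *sgs1*Δ, while 19 of 72 single-donor insertions of the double mutant (26.4%) and 24 of 41 of *sgs1*Δ (58.5%) were Ty. The *mre11*-H125N list had 1 complex insertion, which held no Ty donor. The donors of complex insertions in *sgs1*Δ *exo1*Δ had a median length of 66 bp (44 to 429 bp), against 148 bp for its single donors, and 4 of the 9 were border donors of the kind described above. The listed donors of one insertion summed to 105 to 479 bp.

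The first complex insertion joined 3 donors. One was 66 bp beside *YLR035C-A* (chrXII:215176-215241, plus strand), and the other donors formed an inverted pair at the 5′ border of *YLR227W-B*, with 99 bp on the minus strand (chrXII:593381-593479) and 52 bp on the plus strand (chrXII:593437-593488), which overlap over 43 bp. By listed strand and position it was the only one of the 4 with donors on opposite strands within 1 kb. That count rests on the copy the alignment listed. The insertions across different elements described below also held border donors of opposite orientation relative to their elements. The second insertion held 116 bp and 93 bp of *YOL103W-B*, both on the minus strand, from its 5′ part (chrXV:118016-118131) and from its 3′ border (chrXV:123536-123628), 5404 bp apart.

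The last 2 complex insertions drew on the same 2 elements of chromosome XVI. One of them held 429 bp at the 3′ border of *YPR137C-B* (chrXVI:804645-805073) and 50 bp at the 5′ border of *YPL257W-B* (chrXVI:56742-56791), both listed on the plus strand. The other held 44 bp of *YPL257W-B* (chrXVI:56747-56790) and 61 bp of *YPR137C-B* (chrXVI:804683-804743), both on the minus strand, and each of these lies within the matching donor of the first of the pair. The 2 elements read in opposite directions along the chromosome. Relative to its element, the *YPR137C-B* donor was antisense in the first insertion of the pair and sense in the other. The *YPL257W-B* donor was sense in the first and antisense in the other. The donors of each insertion thus had opposite orientations relative to their elements. The complex insertion of *sgs1*Δ joined 102 bp at the 5′ border of *YPR137C-B* (chrXVI:810222-810323) to 101 bp just inside the frame of *YPR158C-D* (chrXVI:856114-856214). In the 4 insertions of the double mutant and the one of *sgs1*Δ, donors came from 1 chromosome, though the copy assignment limits what this shows.

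rDNA donors numbered 11 in *sgs1*Δ *exo1*Δ, 3 in *sgs1*Δ and 0 in *exo1*Δ. The frequency was 2.00 per 10000 colonies in *sgs1*Δ *exo1*Δ (0.998 to 3.58) and 0.283 in *sgs1*Δ (0.0583 to 0.826). The double mutant was 7.07-fold above *sgs1*Δ (Fisher's exact test, adjusted p = 0.00280) and, with 3 donors counted for the 0, 3.62-fold above *exo1*Δ (Fisher's exact test, adjusted p = 0.00280). As a share of donors, rDNA made up 13.6% in *sgs1*Δ *exo1*Δ (6.98 to 23.0%), 6.98% in *sgs1*Δ (1.46 to 19.1%) and 0 of 9 in *exo1*Δ, and no pair passed (exact adjusted p = 0.735 against *sgs1*Δ and 0.818 against *exo1*Δ). The double mutant passed in number per colony and not in share.

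Of the 11 rDNA donors of the double mutant, 5 lay in the spacer between *RDN5-1* and *RDN37-2* (chrXII:459797-460711), which holds the replication fork barrier bound by Fob1. Their number was not tested against the share of the repeat that this spacer takes. These 5 were within 460022 to 460510 and were 486, 65, 204, 100 and 102 bp long. Among them a minus-strand donor at 460407 to 460506 and a plus-strand donor at 460409 to 460510 cover nearly the same bases and belong to separate insertions. A single donor of 127 bp lay in the other spacer, between *RDN37-1* and *RDN5-1*, which holds the rDNA replication origin. The remaining donors were 2 in *RDN25-1* (173 bp each) and 3 with their middle in transcribed spacers of *RDN37-1* (117 to 177 bp).

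In *sgs1*Δ none of the 3 rDNA donors lay in the *RDN5-1* to *RDN37-2* spacer. They were 358 bp at the end of *RDN37-1*, 152 bp near its start and 76 bp in the spacer next to it. For scale, that spacer held 12 of 64 rDNA donors of *rtt105*Δ, 3 of 16 of *rad27*Δ and 5 of 16 of *rtt105*Δ *rad27*Δ. The repeats are nearly identical and positions refer to the first annotated copy, so the place within the repeat can be read and the copy cannot.

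The class named chrmp, a sequence that the sources used here do not explain, gave 9 donors in *sgs1*Δ *exo1*Δ and none in *sgs1*Δ or *exo1*Δ. The frequency was 1.64 per 10000 colonies in *sgs1*Δ *exo1*Δ (0.748 to 3.11), while the exact upper limit for 0 donors was 0.348 in *sgs1*Δ and 0.680 in *exo1*Δ. With 3 donors counted for each 0 (0.283 and 0.553 per 10000), the double mutant was 5.79-fold above *sgs1*Δ (Fisher's exact test, adjusted p = 0.000252). Against *exo1*Δ it was 2.96-fold above (Fisher's exact test, adjusted p = 0.00869). Elsewhere in the series such donors were listed in *rtt105*Δ (8, or 0.214 per 10000 colonies) and *rad27*Δ (4, with no rate given because its list may not cover all its libraries, kept at 23, 30 or 37 °C). *sgs1*Δ *exo1*Δ was 7.66-fold above *rtt105*Δ (Fisher's exact test, p = 8.52e-05, a single comparison added after the counts had been seen). The 9 donors were all single, ran from position 1131 to 5593, and were on the minus strand in 6 and the plus strand in 3. The highest position listed in any genotype was 6267. They spread along the sequence, and 2 of them overlap, at 2100 to 2227 and 2152 to 2284.

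No mitochondrial donor (chrmt) was listed in the double mutant. There were 0 in *sgs1*Δ *exo1*Δ, with an exact upper limit of 0.671 per 10000 colonies, against 3 in *sgs1*Δ (66, 161 and 240 bp) and 1 in *exo1*Δ (140 bp). Neither difference passed (Fisher's exact test, adjusted p = 0.617 each), and at these numbers a lower frequency was not detectable.

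The lists held few donors in the mating-type cassettes. The study detects local foldback insertions by a separate search, and those were not analysed here, so these counts give no frequency of such events. In the lists *sgs1*Δ *exo1*Δ had 2 (40 and 65 bp), *sgs1*Δ 2 (43 and 46 bp) and *exo1*Δ 4 (29, 43, 67 and 79 bp), and no pair passed (Fisher's exact test, adjusted p of 0.642 for the double mutant against *sgs1*Δ and 0.600 against *exo1*Δ). All but the one of 29 bp began at position 294436 of chromosome III on the minus strand.

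Donor lengths are described by their medians, and tests compared only the share of donors of at least 100 bp, which passed between no pair of genotypes. Outside the mating-type cassettes the median was 133 bp in *sgs1*Δ *exo1*Δ (44 to 486 bp, 81 donors), 152 bp in *sgs1*Δ (37 to 400 bp, 43 donors) and 152 bp in *exo1*Δ (56 to 431 bp, 9 donors). Nuclear donors had a median of 145 bp in *sgs1*Δ *exo1*Δ (quartiles 107 and 197 bp), against 284 bp in *sgs1*Δ (70.5 and 304 bp). At least 100 bp were 29 of 33 nuclear donors in the double mutant and 7 of 11 in *sgs1*Δ (Fisher's exact test, adjusted p = 0.276). The *sgs1*Δ donors comprised 4 of 37 to 77 bp and 7 of 144 to 400 bp, and those of the double mutant ran between 67 and 398 bp.

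Ty donors had a median of 113 bp in *sgs1*Δ *exo1*Δ, 134 bp in *sgs1*Δ and 181 bp in *exo1*Δ. At least 100 bp were 16 of 28 in the double mutant, 22 of 26 in *sgs1*Δ and 6 of 8 in *exo1*Δ, and no pair passed after adjustment (Fisher's exact test, adjusted p = 0.143 for the double mutant against *sgs1*Δ and 0.735 against *exo1*Δ). Within the double mutant, Ty donors were less often at least 100 bp than nuclear donors, at 57.1% (37.2 to 75.5%) of Ty donors and 87.9% (71.8 to 96.6%) of nuclear donors (Fisher's exact test, adjusted p = 0.0447). This call was lost at a limit of 150 bp (11 of 28 Ty and 14 of 33 nuclear donors, exact adjusted p = 1.00) and without complex insertions (14 of 19 Ty and 29 of 33 nuclear donors, exact adjusted p = 0.649). Median lengths of the other classes in the double mutant were 127 bp for rDNA (65 to 486 bp) and 163 bp for chrmp (104 to 320 bp).

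**Figure D4:**
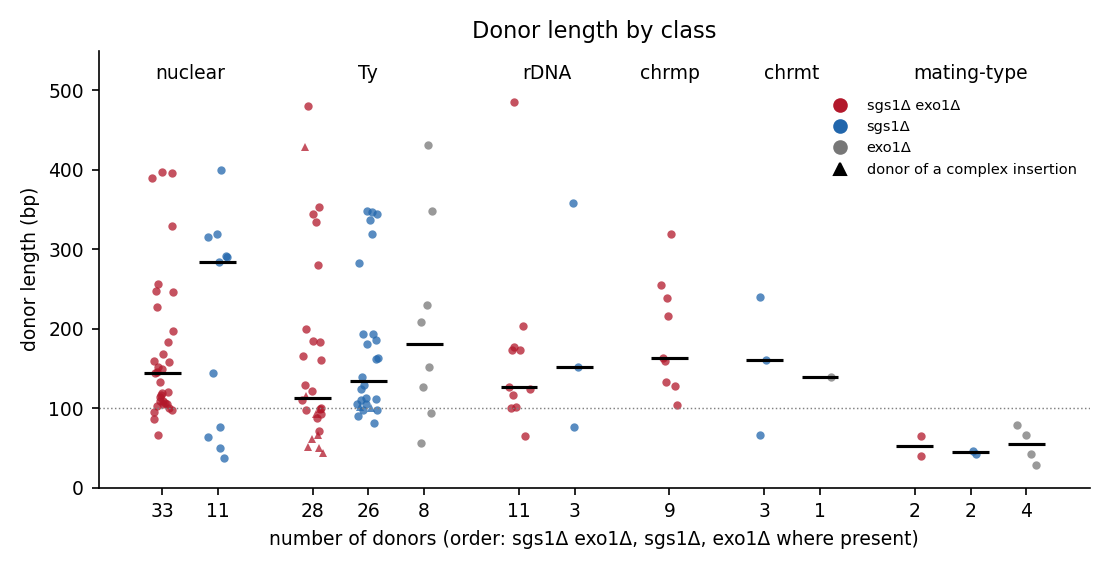
Length (bp) of every donor by class in *sgs1*Δ *exo1*Δ, *sgs1*Δ and *exo1*Δ, with the median as a black bar, the limit of 100 bp as a dotted line and donors of complex insertions as triangles. Classes overlap widely in length, and 7 of the 9 complex donors of the double mutant lie under 100 bp.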

How the data were processed

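*Break-Ins* libraries were made from pooled colonies after an HO break. The authors filtered and merged reads, aligned them to the R64 genome, discarded insertions of 10 bp or less and redundant reads, and deposited lists in which a line is a donor with its position in base pairs (other unit, no count). Deposited lists of a genotype pool its libraries. Lists of single-donor and complex insertions of *sgs1*Δ *exo1*Δ and *sgs1*Δ, and of single-donor insertions of *exo1*Δ, were used. Of the other genotypes some values are given for *mre11*-H125N, *rtt105*Δ, *rad27*Δ and *rtt105*Δ *rad27*Δ, with a test against *rtt105*Δ for chrmp donors. A text list of libraries and lists named for a genotype that no library has were left out.

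Starts were made 1-based. With the R64 RefSeq gene table, donors were classed in order as mating-type cassettes (within 700 bp), Ty (within 400 bp of a Ty reading frame), rDNA (within 500 bp) or nuclear, and chrmt and chrmp were kept as listed. The Ty frames were 91 frames in 49 elements. Right chromosome ends were the highest annotated or listed position. The denominator was the colonies per library in the labels, summed over libraries. They are round numbers for *sgs1*Δ *exo1*Δ, and the study's correction for HO cutting was not applied.

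Frequencies and shares were compared by two-sided Fisher's exact tests, adjusted by the Benjamini-Hochberg method, and given exact (Clopper-Pearson) 95% intervals, which cover counting error only. The interval of the difference from the sum of the single mutants combined the exact limits of the 3 frequencies (MOVER). For folds, a frequency of 0 was replaced by 3 counts, and such folds are not lower limits. Functions were tested on simulated data. Named were genes overlapped by a nuclear donor, loci (donors merged within 500 bp) with at least 2 insertions in the double mutant or donors in more than 1 genotype, loci of complex insertions, gene list members with a donor, the longest and shortest nuclear donor and up to 3 Ty elements with most donors. Members and lists were chosen with earlier results of these data known. Alternatives were counting donors with ends within 5 bp as 1, leaving out complex insertions, other margins, lengths and distances, donors of at least 50 bp, the chi-square test of the methods and, added after the data had been seen, each insertion once per class. One gene hit in *sgs1*Δ is not reported here. No genome sequence was used, so no sequence is shown. SciPy 1.17.1, pandas 2.3.3 and NumPy 2.4.6 were run under Python 3.11.15.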

Additional observations from a re-analysis of the deposited data

Results flagged for a closer look

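The number of colonies per library was the only value known for each library. One library of *sgs1*Δ *exo1*Δ had 10000 colonies while the other 3 had 15000 each and was set apart by Dixon's test. With 3 equal round numbers that test marks any gap, so the mark follows from the rounding in the labels. Its insertions cannot be separated in the pooled list.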

How the results depend on the processing

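Of 247 alternative values over 43 results, 234 were on the same side of the threshold in the same direction, 13 no longer passed and none reversed. The frequencies of all insertions, of rDNA donors and of chrmp donors in the double mutant passed against both single mutants under every alternative computed, as did nuclear donors. No alternative changed the counts of rDNA or chrmp donors, so for these classes the alternatives are no separate support. The other mating-type margin and the lack of an rDNA margin changed no count in any class, so their values repeat the main ones. The intervals of the differences from the sum went on including or excluding 0 under the 4 alternatives run for them, while the Ty difference itself was -0.283 with single-donor insertions only. The values that no longer passed are adjusted p-values of Fisher's exact test. With single-donor insertions only they were 0.304 for Ty frequency in *sgs1*Δ *exo1*Δ against *sgs1*Δ, 0.0952 against *exo1*Δ and 0.649 for the share of Ty against nuclear donors of at least 100 bp in the double mutant. Without a margin around Ty frames they were 0.0577 for Ty frequency in *sgs1*Δ *exo1*Δ against *sgs1*Δ, 0.179 for nuclear frequency in *sgs1*Δ against *exo1*Δ, and 0.0969 and 0.415 for the Ty share in *sgs1*Δ *exo1*Δ against *sgs1*Δ and against *exo1*Δ. With donors within 5 bp counted once they were 0.0972 for the Ty share against *sgs1*Δ and 0.0670 for Ty against nuclear lengths. Length limits of 150 and 75 bp gave 1.00 and 0.128 for the latter comparison. With each insertion once per class, added after the data had been seen, they were 0.0807 for Ty frequency against *sgs1*Δ and 0.509 for Ty against nuclear lengths. The cause was not tested. No paired analysis was possible because the lists pool the libraries of a genotype, and leaving out each library could not be run for the same reason. Error in the numbers of colonies and differences in HO cutting are not covered by any interval.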
